A study of Mus musculus with 38 samples.

Results

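The Nr4a orphan nuclear receptors Nr4a1 (also Nur77), Nr4a2 (Nurr1) and Nr4a3 (Nor1) were followed across a ribosome profiling study of cultured mouse cortical neurons. The 3 genes were chosen by family membership and matched by symbol, and they are 3 of the 22401 genes with coding sequence (CDS) counts. For each gene the transcript with the longest annotation was used, and its ribosome footprints were taken from the CDS and from the 5′ untranslated region (5′ UTR), both scaled to counts per 1000000 CDS counts of the library (CPM).

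Nr4a receptors are transcription factors of the nuclear receptor superfamily whose ligand-binding pocket is filled by bulky side chains, so that their activity is set mainly by how much protein is made rather than by a hormone. They bind the NBRE element in DNA as monomers and related elements as dimers, and Nr4a1 and Nr4a2 also pair with retinoid X receptors. In neurons all members are immediate early genes: calcium entry and CREB, with CRTC and MEF2 factors, switch on their transcription within minutes to hours, and they have been tied to memory formation, metabolism and, for Nr4a2, to dopaminergic neuron identity.

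Primary cortical neurons from mouse embryos carried a lentivirus with doxycycline-inducible TurboID, a biotin ligase, fused to the postsynaptic scaffold PSD95 (PSD95, a dendritic bait) or without a localization signal (Pan). According to the labels every culture was given cycloheximide for 2 min and then biotin for 30 min, and for each culture ribosome footprints were sequenced from the monosomes of the whole lysate (input) and from the streptavidin-bound ribosomes (pulldown). The 38 libraries form 14 groups, 10 of 3 libraries and 4 of 2, and neither the sex of the embryos nor the number of litters enters the labels, so that p-values measure the spread between these cultures.

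The main experiment had 24 libraries, namely resting and depolarized cultures with either bait, each as input and pulldown (n = 3 per group). Depolarized cultures were silenced with tetrodotoxin and AP5 for 2 h, then held in 55 mM KCl for 1 h and left for 30 min before harvest; the labels name the silencing for the stimulated cultures and do not state it for the resting ones. The DHPG experiment had 6 PSD95 libraries (3 inputs, 3 pulldowns) after silencing and 10 min of DHPG at 100 µM, which activates metabotropic glutamate receptors of group I. For these cultures the paper gives a shorter time with biotin, after DHPG was removed, than the labels do. The knockdown experiment had 8 PSD95 libraries (2 per group) from cultures given 20 nM siRNA against Eif4g2, a translation initiation factor also called DAP5, for 72 h, resting or depolarized. The labels' virus field names the PSD95 bait for all DHPG and knockdown libraries, whereas their free-text descriptions give a cytosol region for the DHPG inputs and for every knockdown library, pulldowns included. The virus field was followed here. The resting reference for DHPG and the untreated reference for the knockdown come from the main experiment, so that the treatment and the experiment cannot be told apart in those comparisons, and control siRNA libraries were not analysed here. The bait was driven by an inducible viral promoter that is not restricted to a cell type, so that any transduced cell of a culture could carry it.

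CDS totals ran from 2048604 to 14646402 counts per library. Neuronal markers (Rbfox3, Tubb3, Snap25, Syt1, Stmn2, Nefl) summed to 3633 to 4373 CPM in resting inputs and 3195 to 3584 CPM in depolarized inputs, against 646 to 1192 and 710.1 to 1296 CPM for 8 astrocyte markers, 244 to 609 and 162 to 415 CPM for 9 oligodendrocyte lineage markers, and at most 5.73 CPM for 9 microglial markers. Footprints of non-neuronal marker genes were therefore present, whereas the paper describes its cultures as free of other cell types by staining and transcript levels. The part of other cells in the values below was not tested. In bulk cultures, fewer cells of a type and less translated RNA per cell cannot be told apart.

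In the GRCm38 (mm10) genome, the CDS of Nr4a1 (ENSMUSG00000023034.7) lies at chr15:101270085-101274252 on the + strand and spans 1806 nt in 6 coding exons. That of Nr4a2 (ENSMUSG00000026826.13) lies at chr2:57108156-57112439 on the - strand with 1797 nt in 6 coding exons, and that of Nr4a3 (ENSMUSG00000028341.9) at chr4:48051248-48083352 on the + strand with 1884 nt in 6 coding exons. Over all libraries the genes held 84343, 29876 and 80232 CDS counts. The leaders (5′ UTRs) were less alike. The longest Nr4a1 transcript (ENSMUST00000228985) has a distal leader of 204 nt with only 1427 counts, whereas the 126-nt leader exon at chr15:101266846-101266971 held 21435. That exon begins the leaders of ENSMUST00000023779 (128 nt) and of ENSMUST00000230814 (304 nt). The proximal leader below is that of ENSMUST00000230814, the Nr4a1 transcript with most leader counts (21549). Nr4a2 (ENSMUST00000028166, 445 nt) had 14964 leader counts and Nr4a3 (ENSMUST00000030025, 743 nt) 46053.

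The sequences around the start codons are printed because the leaders carried a large part of the footprints, and they show what an initiating ribosome meets in each member. Capitals mark the ATG.
Nr4a1, annotated start: agccggctggagATGccctgtatt
Nr4a2, annotated start: tctgctgaagccATGccttgtgtt
Nr4a3, annotated start: taccctccagatATGccctgcgtg
Nr4a2, upstream ATG at base 72: gactttaggtgcATGttggcagca
Nr4a2, upstream ATG at base 301: cggcggagttgaATGaatgaagag
Nr4a2, upstream ATG at base 305: ggagttgaatgaATGaagagagcg
Nr4a3, upstream ATG at base 5: ataaATGacgtgccga
Nr4a3, upstream ATG at base 365: gccggagactggATGcctgcggaa
Nr4a3, upstream ATG at base 397: cggcgctctcccATGagttgggat
The 128-nt leader of ENSMUST00000023779, which gives the Nr4a1 start printed here, holds 0 upstream ATGs. The 304-nt one holds 5, all in a 176-nt exon that drew 52 counts, and the distal 204-nt leader holds 4. The leaders of Nr4a2 and Nr4a3 hold 3 each (bases counted from 1 at the transcript's 5′ end). These upstream reading frames of Nr4a2 and Nr4a3 close before the CDS, after 9, 36 and 8 codons in Nr4a2 and after 131, 11 and 47 codons in Nr4a3.

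Promoters are shown because the members are known targets of CREB, which binds the cAMP response element. RefSeq windows of 300 bases (250 before and 50 after the annotated start, GRCm38.p6) were searched on both strands for the core of that element, TGACG or CGTCA, and each member held 4 matches; 20.8% of 32817 windows held at least 1 and 0.232% held as many as 4. Examples are printed with 1 core each in capitals, on the strand of the gene. The last Nr4a3 stretch also holds a CGTCA match, left in small letters.
Nr4a1, chr15:101266765-101266793: ccgggccgtgtgCGTCAgtggcgcccccg
Nr4a1, chr15:101266794-101266822: cccctctccatgCGTCAcggagcgcttaa
Nr4a2, chr2:57124131-57124159: gccggctgcacgCGTCAcggagcccggcc
Nr4a3, chr4:48045062-48045090: ggaggaggagggTGACGtagcgtcccatg
Nr4a3, chr4:48045088-48045116: atgtcgtcacatTGACGtctcgcattcca
These windows hold no full TGACGTCA (present in 1.79% of windows), AP-1 site TGANTCA (7.81%), CArG box (1.63%) or NBRE AAAGGTCA (1.51%). The Nr4a2 window lies at a distal first exon that held 244 counts, not at the 321-nt leader exon that carried 13818 of the 14964 leader counts. The Nr4a3 window (chr4:48045055-48045354) overlaps the leader exon at chr4:48045153-48045716, and its match at -147 lies inside that exon. A match describes letters in a window and does not show a bound site.

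The first comparison asked how depolarization changed CDS footprints of the members in whole lysates. Nr4a1 rose about 10-fold, Nr4a2 rose less than 2-fold, and Nr4a3, at 1.35-fold, did not pass in edgeR. All 6 resting inputs (both baits) and all 6 depolarized inputs entered. No RNA counts were set beside the footprints, so that RNA level and translation per RNA cannot be told apart. CPM is relative to the CDS total of a library, and the paper reports fewer ribosomes on coding sequences after KCl.

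Nr4a1 stood at 78.0, 84.0 and 177 CPM in resting PSD95 inputs and at 54.1, 67.5 and 145 CPM in resting Pan inputs, replicates 1 to 3 in order. Depolarized PSD95 inputs held 1015, 1031 and 1289 CPM and depolarized Pan inputs 832, 877 and 1025 CPM. The lowest depolarized library lay far above the highest resting one, and replicate 3 was the highest resting library with either bait. The log2 fold change was 3.36 (SE 0.28), or 10.3-fold, and the adjusted p was 9.06e-09 (quasi-likelihood F test of edgeR, Benjamini-Hochberg over all genes tested, the test behind every edgeR adjusted p below). Leaving out each replicate in turn gave log2 fold changes from 3.13 to 3.80.

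For Nr4a2 the resting inputs held 106, 200.2 and 141 CPM (PSD95) and 113, 142 and 169 CPM (Pan). The depolarized inputs held 215, 302 and 268 CPM (PSD95) and 253, 181 and 262 CPM (Pan). Within each bait every depolarized library exceeded every resting one, while over both baits the lowest depolarized library, Pan replicate 2, fell below the highest resting one. Nr4a2 rose by a log2 fold change of 0.79 (SE 0.20), or 1.73-fold, with an edgeR adjusted p of 0.00683. Without replicate 3 the value was 0.82 and the adjusted p 0.121.

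Nr4a3 was already high at rest, at 379.6, 422 and 529.8 CPM in PSD95 inputs and 426, 456 and 559.8 CPM in Pan inputs. After depolarization it stood at 554, 597 and 657 CPM (PSD95) and 668, 449.5 and 725 CPM (Pan). Within PSD95 inputs the groups lay apart, while over both baits depolarized Pan replicate 2 and PSD95 replicate 1 lay below the highest resting library, Pan replicate 3. The log2 fold change was 0.43 (SE 0.16), or 1.35-fold, with an edgeR adjusted p of 0.0611. With the replicate number as a block, used as an alternative because the study's methods state that resting and activated cultures of a replicate were handled together, the value was 0.44 and the adjusted p 0.0186. DESeq2 gave 0.47 and 0.0209, and 5 of 11 alternatives in all passed.

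In edgeR 2 of 3 members passed, both upward (3 in DESeq2), and 15.4% of the 13019 genes tested passed in either direction. Per kilobase of CDS, which allows levels to be compared between genes, resting inputs averaged 55.9 ± 27.0 CPM per kb for Nr4a1, 80.7 ± 19.6 for Nr4a2 and 245 ± 36.7 for Nr4a3 (SD, n = 6). In depolarized inputs the means were 560.2 ± 88.4, 137 ± 23.9 and 323 ± 51.9 CPM per kb, so that Nr4a1 moved from the lowest to the highest level of the family. The log2 ratio of Nr4a1 to Nr4a2 CDS counts within a library went from -0.62 to 2.04, a difference of 2.66, and that of Nr4a1 to Nr4a3 from -2.31 to 0.74, a difference of 3.05. Both gave p = 0.00216 in the exact two-sided permutation test, the smallest that 6 against 6 libraries allow (0.00325 after adjustment over the 3 ratios). The ratio of Nr4a2 to Nr4a3 shifted by 0.39 (exact permutation p = 0.026, adjusted 0.026), a call lost without replicate 1 or 3 (adjusted p = 0.143 in both exact tests). Paired by bait and replicate number, each of the 3 ratios gave 0.0312 (exact sign-flip permutation test). These tests count the PSD95 and Pan inputs of 1 replicate number separately. With 3 replicate sets per state, no exact p below 0.10 is possible.

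**Figure D1:**
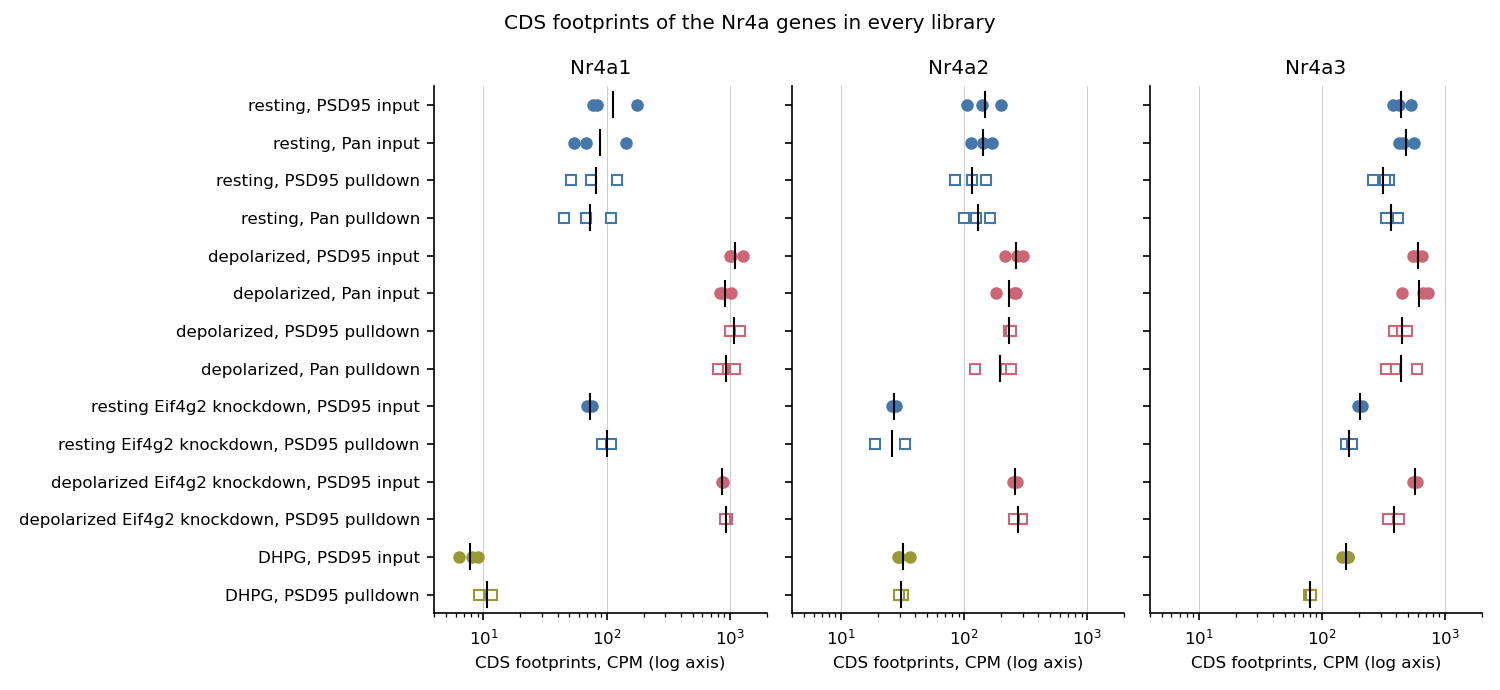
CDS footprints of each Nr4a gene in every library (CPM, log axis), with 1 row per group, filled circles for inputs, open squares for pulldowns and a black bar at the group mean; blue marks resting, red depolarized and olive DHPG cultures. Nr4a1 lies at 797 CPM or more in every depolarized library and at 177 CPM or less in every other one, whereas resting and depolarized inputs of the main experiment overlap for Nr4a2 and for Nr4a3 when both baits are pooled.

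In the ribosomes captured with the dendritic bait, Nr4a1 again had the largest response of the 3 members. Nr4a1 went from 51.0, 75.4 and 121 CPM in resting PSD95 pulldowns to 1005, 1005 and 1214 CPM in depolarized ones. All depolarized libraries lay above all resting ones, and the log2 fold change was 3.74 (SE 0.40, edgeR adjusted p = 2.1e-06). Nr4a2 went from 84.6, 149 and 116 CPM to 229, 229 and 241 CPM. These ranges did not overlap either, and the log2 fold change was 1.01 (SE 0.28, edgeR adjusted p = 0.03). That call was lost without replicate 1 (adjusted p = 0.0703), 2 (0.052) or 3 (0.295), and with only the libraries of those groups (0.109). Nr4a3 went from 259.7, 351 and 324 CPM to 387, 449 and 496 CPM, with a log2 fold change of 0.53 (SE 0.22) that missed the threshold (edgeR adjusted p = 0.152). Passing members numbered 2 of 3, both upward, where 6.60% of genes passed in either direction.

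In the unlocalized Pan pulldowns, Nr4a1 rose from 45.1, 67.9 and 109 CPM to 889.9, 797 and 1110.0 CPM, again without overlap (log2 fold change 3.70, SE 0.40, edgeR adjusted p = 2.11e-06). Nr4a2 stood at 100.0, 126 and 163 CPM at rest and at 219.9, 122 and 240.0 CPM after depolarization, replicate 2 being as low as the resting libraries (0.63, SE 0.28, edgeR adjusted p = 0.212). Nr4a3 stood at 346, 334 and 419 CPM and then at 391, 329 and 594 CPM, with overlapping groups (0.31, SE 0.22, edgeR adjusted p = 0.494). Here 1 of 3 members passed, upward, against 5.03% of genes in either direction.

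The next question was whether the members were held in dendritic ribosomes more or less than in the lysate. At rest Nr4a3 was lower in the PSD95 pulldown than in the mean of both inputs, with a value of -0.54 on the log2 scale (edgeR adjusted p = 0.0379, SE 0.20). Nr4a1 (-0.26, SE 0.32, adjusted p = 0.563) and Nr4a2 (-0.28, SE 0.25, adjusted p = 0.404) did not pass. The count was 1 of 3, downward, while 31.1% of genes passed in either direction, and the Nr4a3 call was lost without any 1 replicate (edgeR adjusted p from 0.0674 to 0.282). Under the replicate block Nr4a3 lay at -0.53 (edgeR adjusted p = 0.0021), where 5583 of 13019 genes passed. After depolarization 0 of 3 passed in edgeR and 0 in DESeq2, 1 at an unadjusted p under 0.05, where 18.0% of genes passed. Nr4a1 lay at 0.12, Nr4a2 at -0.06 and Nr4a3 at -0.44 (SE 0.19, edgeR adjusted p = 0.11). With the replicate block, Nr4a3 fell by 0.43 with an adjusted p of 0.0147.

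In Pan pulldowns against their own inputs Nr4a3 lay at -0.34 at rest (edgeR adjusted p = 0.304) and at -0.45 after depolarization (0.175, and 0.0257 for the same -0.45 with the replicate block). Nr4a1 (-0.20 and 0.08) and Nr4a2 (-0.07 and -0.21) did not pass in either state. For both states 0 of 3 members passed in edgeR and in DESeq2 and 0 had an unadjusted p under 0.05, beside 9.60% of genes at rest and 8.83% after depolarization.

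The differences themselves were also tested. Enrichment in PSD95 pulldowns over Pan pulldowns, across both states, was -0.16 (SE 0.36) for Nr4a1, -0.08 (SE 0.28) for Nr4a2 and -0.04 (SE 0.22) for Nr4a3. The change of PSD95 enrichment with depolarization was 0.38, 0.22 and 0.10 in that order. In both tests 0 of 3 members passed in edgeR and in DESeq2 and 0 had an unadjusted p under 0.05, and hardly any gene passed either, 0.00768% (1 gene) in the former and 0% in the latter. Of all genes, 169 in the former and 343 in the latter had an unadjusted p under 0.05, and DESeq2 called 2 and 1. With the replicate block no member passed in either test. Nr4a1 then lay at -0.15 in the former (SE 0.13, edgeR adjusted p = 0.999). In the latter it lay at 0.34 (SE 0.16, unadjusted p = 0.0488, edgeR adjusted p = 0.907).

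**Figure D2:**
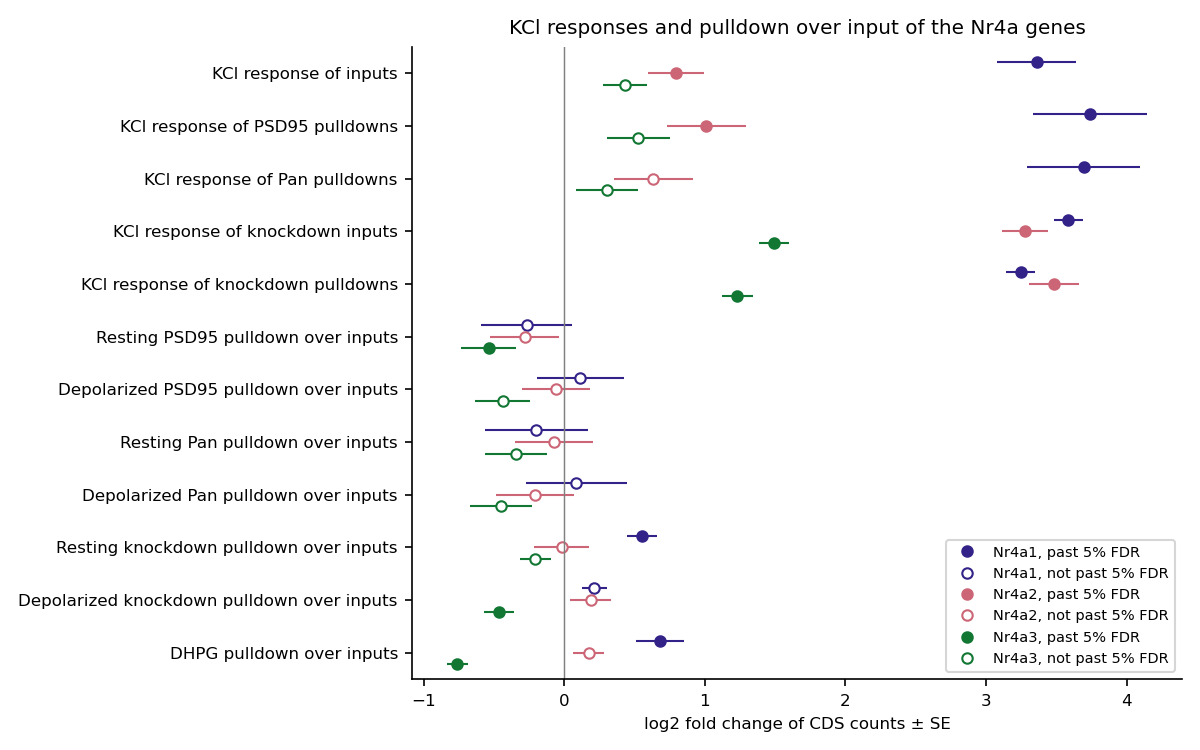
Log2 fold changes of CDS counts with SE for each Nr4a gene in the 5 KCl responses and 7 pulldown-over-input comparisons; filled circles passed the 5% false discovery rate and open ones did not. Nr4a1 lies between 3.25 and 3.74 in all 5 KCl responses, Nr4a2 lies near 1 or below in the 3 untreated responses and above 3 in the 2 knockdown ones, and the pulldown comparisons lie within 1 of 0.

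Leaders told the members apart as well. Reads were counted at their 5′ ends, so that a ribosome at the annotated start codon can be counted in the leader. Leader counts therefore do not measure upstream reading frames alone. In the 6 resting inputs the 5′ UTR share, the part of a gene's 5′ UTR and CDS footprints that lay in the leader, was 23.8% at the lowest, 31.2% at the median and 44.2% at the highest for the proximal Nr4a1 leader. In the 6 depolarized inputs these values were 17.7%, 23.9% and 28.9%. The ranges overlapped, and the mean went from 32.9 ± 6.91% to 23.6 ± 3.65% (exact two-sided permutation test, p = 0.00866, 0.026 adjusted over the 3 members). The proximal leader was chosen by its counts in these same libraries, and its test was not planned. Each Nr4a1 leader was adjusted in its own set of 3 tests. For the distal leader of the longest Nr4a1 transcript the share went from 8.93 ± 4.34% to 1.21 ± 0.393% with no overlap between libraries (exact permutation p = 0.00216, adjusted 0.00649). Transcripts with the distal and the proximal leader exon have the same CDS counts, so that this share falls whenever those counts rise. It does not measure use of the distal leader alone.

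In inputs the share rose in the other members. Nr4a2 had 21.9, 26.2 and 40.9% in resting PSD95 inputs and 25.3, 25.5 and 44.7% in resting Pan inputs, against 52.0, 43.5 and 50.0% and 28.0, 50.3 and 48.4% after depolarization. Replicate 3 was high at rest and depolarized Pan replicate 1 was low, and the mean went from 30.8 ± 9.53% to 45.4 ± 9.0% (exact permutation p = 0.0195, adjusted 0.026). Nr4a3 had between 34.0 and 39.3% at rest and between 44.3 and 50.3% after depolarization, except for Pan replicate 1 at 30.9%. Its mean went from 37.0 ± 2.02% to 45.3 ± 7.31% (exact permutation p = 0.026, adjusted 0.026). Paired by bait and replicate number, Nr4a3 rose in 5 of 6 pairs and its call was lost (exact sign-flip permutation p = 0.0625). Nr4a2 and both Nr4a1 leaders gave 0.0312, the smallest that 6 pairs allow (0.0469 adjusted). Both tests count the PSD95 and Pan inputs of 1 replicate number separately, although same-number libraries of both baits correlated at 0.12 to 0.64 within a state (deviations from group means across genes), and 3 replicate sets per state could not give an exact p below 0.10. These calls rest on few libraries. In the exact permutation test of 4 against 4 libraries, p adjusted over the 3 members was 0.0571 and 0.2 for Nr4a2 without replicate 1 or 2, and 0.2 and 0.143 for Nr4a3 without replicate 2 or 3. It was 0.0857 for the distal Nr4a1 leader without replicate 2, and 0.171 and 0.143 for the proximal one without replicate 2 or 3. Adjusted beside the proximal leader, Nr4a2 also missed the threshold without replicate 3 (exact permutation test, adjusted p = 0.0857). Over 8477 genes the median share went from 20.0% to 22.6%, with a median difference of 1.44 points and a higher share in 65.1% of genes. Taken within 1 bait, 3 libraries against 3 cannot give an exact p below 0.10, and the differences kept their signs there. PSD95 pulldowns are given without a test. Their mean share went from 14.9% to 23.3% for Nr4a2 and from 21.9% to 32.2% for Nr4a3. Depolarized libraries spread widely, from 7.81 to 34.7% and from 16.4 to 46.2%, and so overlapped the resting ones. For the proximal Nr4a1 leader the mean went from 24.1% to 11.3% (3.90 to 18.96% depolarized).

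**Figure D3:**
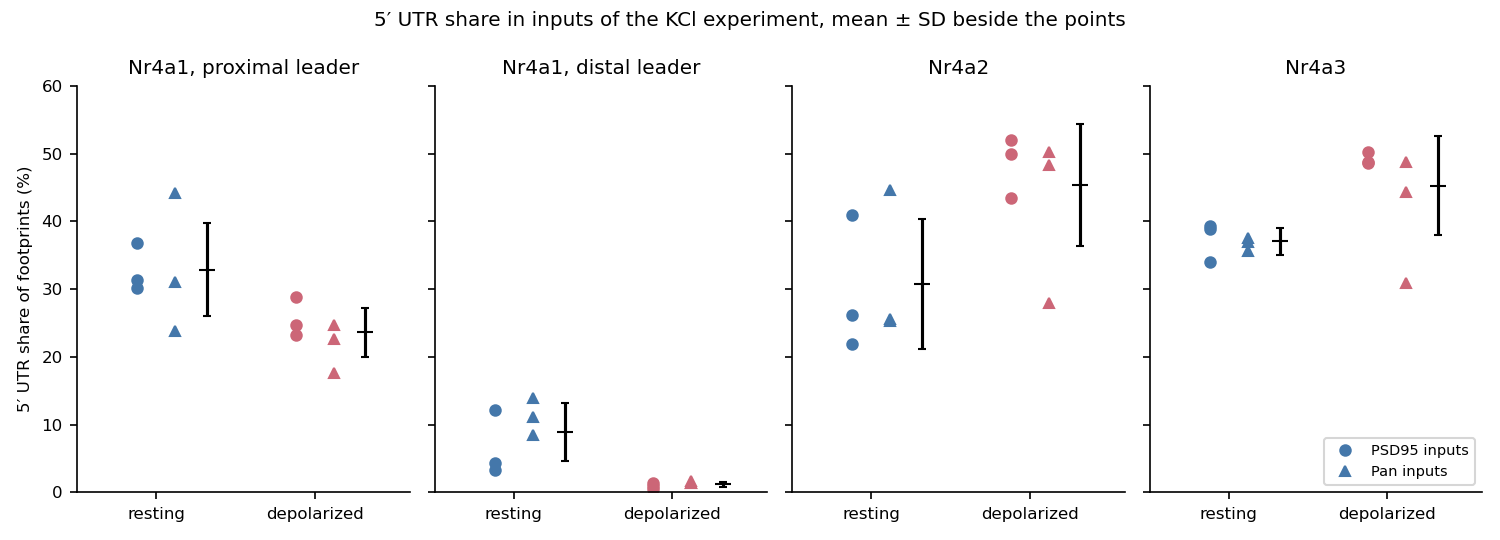
5′ UTR share of footprints (%) in the resting (blue) and depolarized (red) inputs, circles for PSD95 and triangles for Pan, with mean ± SD in black (n = 6), for both Nr4a1 leaders, Nr4a2 and Nr4a3. Shares of Nr4a1 fell (32.9% to 23.6% for the proximal leader) and those of Nr4a2 and Nr4a3 rose to about 45%, with depolarized Pan replicate 1 lowest in both.

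Leader footprints per 1000000 CDS counts did not follow the shares, since the proximal Nr4a1 leader, whose share fell, rose most. The proximal leader of Nr4a1 rose from 16.9, 35.9 and 115 CPM (lowest, median, highest of 6 inputs) to 179, 317 and 419 CPM, a log2 fold change of 2.50 (SE 0.40, edgeR adjusted p = 4.23e-05). The distal one changed by 0.50 (SE 0.45), which did not pass. That of Nr4a2 rose by 1.58 (SE 0.38, edgeR adjusted p = 0.0216, and 1.76 with 3.31e-07 under the replicate block), a call lost without replicate 2 (0.443) or 3 (0.315). That of Nr4a3 lay at 0.90 (SE 0.34, edgeR adjusted p = 0.559, and 0.92 with 0.0171 under the replicate block, or 0.70 with 0.00811 when scaled to leader counts). With the longest transcripts 1 of 3 members passed, upward, where 0.442% of 10186 leaders passed.

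Fewer leader footprints were recovered in pulldowns in general. Leader counts over all genes came to 18.3 to 38.0 per 100 CDS counts in inputs and 4.93 to 23.0 in pulldowns of the series, depolarized PSD95 pulldown replicate 2 being highest among the latter. At rest the PSD95 pulldown over inputs was -1.76 for the Nr4a2 leader (edgeR adjusted p = 0.00493) and -1.58 for that of Nr4a3 (0.00486). The distal Nr4a1 leader lay at -0.77 and did not pass. This is 2 of 3, both downward, beside 61.5% of leaders in either direction. The proximal Nr4a1 leader lay at -1.05 at rest (edgeR adjusted p = 0.06) and at -1.12 after depolarization (0.0781). Scaled to the leader counts of each library instead, Nr4a2 lay at -0.17 (edgeR adjusted p = 0.959) and Nr4a3 at -0.03 (0.982), and neither passed. Both calls were also lost without replicate 3 (edgeR adjusted p = 0.213 and 0.184). Under the replicate block, with CDS scaling, the Nr4a2 leader lay at -1.58 (edgeR adjusted p = 4.21e-05) and that of Nr4a3 at -1.60 (1.13e-05). There 7226 of 10186 leaders passed. After depolarization Nr4a2 lay at -1.40 (edgeR adjusted p = 0.0481) and Nr4a3 at -1.07 (0.0678, and -1.25 with 0.000768 under the replicate block), 1 of 3 beside 12.6% of leaders. The Nr4a2 call was lost without replicate 1 (edgeR adjusted p = 0.0664) or 3 (0.526), and the replicate block gave -1.63 (0.00012). Scaled to leader counts, Nr4a2 lay at -0.33 (edgeR adjusted p = 0.931) and Nr4a3 at 0.0033 (0.998).

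Footprints were also unevenly spread along the coding sequences. The first coding exon makes up 49.0% (Nr4a1), 48.1% (Nr4a2) and 50.6% (Nr4a3) of the CDS length. In Nr4a1 the first 40 nt, 2.21% of the CDS, held 32.2 ± 7.52% of CDS counts in resting inputs (22.5 to 42.4%, n = 6) and 18.0 ± 3.17% in depolarized inputs (12.5 to 21.99%). All 6 depolarized values were below the lowest resting one, if only just. Resting knockdown inputs held 17.7 and 17.03%, inside the depolarized range, and depolarized knockdown inputs 12.5 and 9.61%. This measure was chosen after its values were seen and is given without a test.

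At the other end, the last coding exon held a larger share in pulldowns than in the matching inputs. It spans 257 nt in Nr4a1 and Nr4a2 and 248 nt in Nr4a3, that is 14.2%, 14.3% and 13.2% of the CDS. Over the 12 input and pulldown pairs of the main experiment, its mean share of CDS counts was 6.75% in inputs and 15.9% in pulldowns for Nr4a1, 5.70% and 16.3% for Nr4a2, and 5.39% and 14.2% for Nr4a3. It was higher in the pulldown in 11 of 12 pairs for Nr4a1, the exception being resting Pan replicate 1 (6.78% and 5.28%), and in 12 of 12 for each of the others. Most genes moved the same way, with a median difference of 2.34 points over 7051 genes and a higher share in 81.6% of them, and the members stood at percentiles 83.6, 86.5 and 82.7 of that difference. This measure, too, was chosen after its values were seen and is given without a test.

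**Figure D4:**
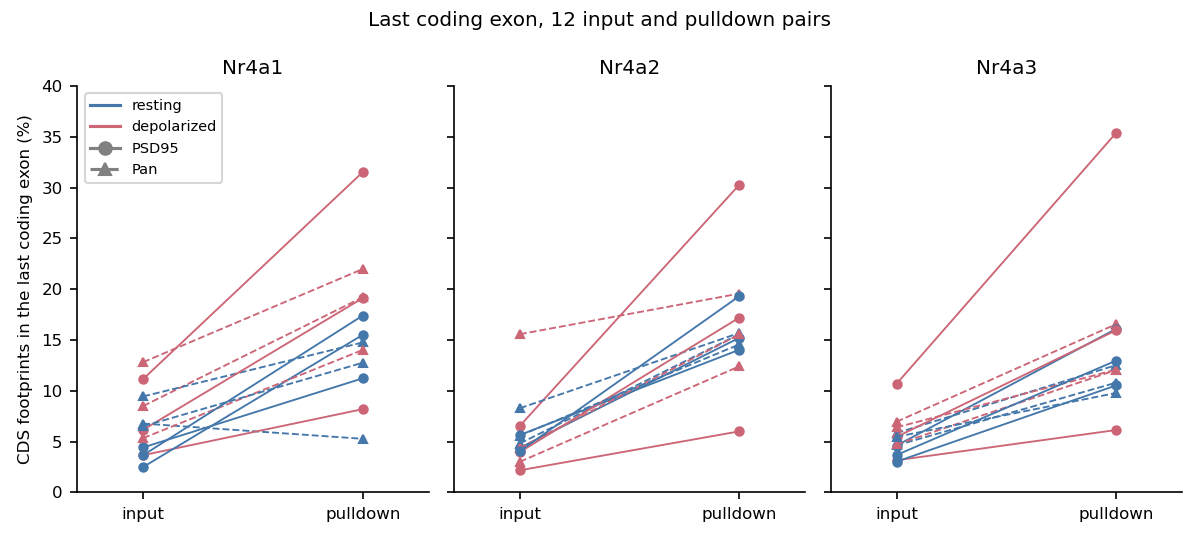
Share of each gene's CDS footprints in its last coding exon (%), with a line joining the input and the pulldown of the same culture; circles and solid lines are PSD95, triangles and dashed lines Pan, blue resting and red depolarized. Lines go up in 11, 12 and 12 of the 12 pairs for Nr4a1, Nr4a2 and Nr4a3.

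After DHPG the members were much lower than in the resting cultures of the main experiment. Nr4a1 had 8.05, 8.999 and 6.31 CPM in DHPG inputs (39 to 62 counts per library), against 78.0, 84.0 and 177 CPM in resting PSD95 inputs. The groups lay far apart, with a log2 fold change of -3.74 (SE 0.40), or 13.4-fold lower (edgeR adjusted p = 2.88e-05). Without replicate 3, which holds the highest resting library, it was -3.14 (edgeR adjusted p = 0.000215). Nr4a2 had 29.6, 36.5 and 29.1 CPM and fell by 2.13 on the log2 scale (SE 0.25, edgeR adjusted p = 2.27e-05). Nr4a3 had 165, 162 and 147 CPM and fell by 1.39 (SE 0.14, edgeR adjusted p = 3.26e-06). All 3 members passed downward, beside 32.8% of 12803 genes in either direction.

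DHPG pulldowns were lower than resting PSD95 pulldowns as well. Nr4a1 stood at 9.15, 11.4 and 11.7 CPM (log2 fold change -2.66), Nr4a2 at 31.3, 31.9 and 29.7 CPM (-1.69) and Nr4a3 at 79.3, 81.4 and 81.5 CPM (-1.72). None of these libraries reached the lowest resting pulldown of its gene, and 3 of 3 passed beside 47.7% of genes (edgeR adjusted p = 0.00011, 6.9e-05 and 2.05e-07). The cultures of this experiment also differed in their makeup. DHPG inputs had neuronal markers at 6208 to 6284 CPM, astrocyte markers at 236 to 247 CPM and oligodendrocyte lineage markers at 45.0 to 48.8 CPM. Fibroblast markers summed to 33.01 to 34.01 CPM (228 to 429 in resting inputs), those of dividing progenitors to 101 to 111 CPM (320.4 to 567.6) and endothelial ones to 8.74 to 10.6 CPM (12.5 to 49.4). Each of these 6 ranges lay outside that of the resting inputs. Their part in the lower Nr4a values was not tested, and DHPG, the stated silencing and the separate experiment cannot be told apart.

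Within the DHPG experiment the pulldown held relatively more Nr4a1 (log2 fold change 0.68, SE 0.17, edgeR adjusted p = 0.00153) and less Nr4a3 (-0.76, SE 0.07, edgeR adjusted p = 1.58e-08) than the input, whereas Nr4a2 lay at 0.17 (0.153). Of all genes 79.8% of 12273 passed here, beside 2 of 3 members, 1 in each direction. The leaders of Nr4a2 (-1.70) and Nr4a3 (-1.53) were lower in the pulldown, 2 of 3 members beside 95.2% of leaders. Scaled to leader counts neither passed (-0.23 and -0.028, edgeR adjusted p = 0.700 and 0.937), while the distal Nr4a1 leader went from 0.067 (0.857) to 1.56 (0.00357) upward. With CDS scaling the proximal Nr4a1 leader lay at -0.62 (edgeR adjusted p = 0.0893). Against resting inputs, leaders in DHPG inputs fell by 1.71 (distal Nr4a1), 2.96 and 2.55, 3 of 3 beside 10.4% of leaders. The distal Nr4a1 call (edgeR adjusted p = 0.036) rests on 13 to 15 counts per DHPG input and was lost without replicate 2 (0.292) or 3 (0.327), and when scaled to leader counts (0.0559). The proximal Nr4a1 leader lay at -3.95 (SE 0.49, edgeR adjusted p = 1.04e-05).

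Eif4g2, the target of the siRNA, had 284 and 284 CPM in resting knockdown inputs and 337 and 323 CPM in depolarized ones. Untreated PSD95 inputs held 562, 565 and 582 CPM at rest and 576, 538 and 772 CPM after depolarization, so that the knockdown libraries lay below all of them. The log2 fold changes were -0.98 (edgeR adjusted p = 0.00375) and -0.90 (0.00641). DHPG inputs, which had no siRNA, held 444, 454 and 457 CPM, also below the untreated resting inputs.

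Within the knockdown experiment all members rose on depolarization. Nr4a1 went from 69.9 and 76.2 CPM in resting inputs to 863 and 875 CPM, a log2 fold change of 3.58 (SE 0.10, edgeR adjusted p = 6.3e-19). Nr4a2 went from 28.0 and 26.1 CPM to 271 and 247 CPM, 3.28 (SE 0.16, edgeR adjusted p = 8.97e-14), or 9.70-fold. Nr4a3 went from 213 and 199 CPM to 548 and 598 CPM, 1.49 (SE 0.11, edgeR adjusted p = 1.09e-10). Resting and depolarized libraries lay apart for each gene, and 3 of 3 passed upward beside 19.3% of 12239 genes in either direction. Replicates of this experiment differed less beyond counting noise than those of the main experiment. The small p-values rest on that narrower spread.

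Pulldowns of the knockdown cultures gave the same 3 calls. Nr4a1 went from 91.1 and 109.7 to 957 and 922 CPM (log2 fold change 3.25, SE 0.10), Nr4a2 from 19.0 and 33.3 to 295 and 256 CPM (3.48, SE 0.18) and Nr4a3 from 156 and 175 to 426 and 345 CPM (1.23, SE 0.11). Again 3 of 3 passed upward, where 22.2% of genes passed. Leaders of the inputs rose too, by 2.28 (distal Nr4a1), 4.54 and 1.76, 3 of 3 beside 3.41% of leaders, and the proximal Nr4a1 leader by 3.68. Scaled to leader counts the distal Nr4a1 leader lay at 1.77 and lost its call (edgeR adjusted p = 0.290), which leaves 2 of 3.

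The larger Nr4a2 response in the knockdown went with a lower resting level. Resting knockdown inputs (28.0 and 26.1 CPM) lay below all untreated resting PSD95 inputs (106, 200.2 and 141 CPM), 5.45-fold lower and -2.45 on the log2 scale (SE 0.30, edgeR adjusted p = 7.01e-05). Nr4a3 was lower as well, by -1.09 (SE 0.20, edgeR adjusted p = 0.0033), and Nr4a1 lay at -0.60 (SE 0.31, 0.333). In DHPG inputs, which had no siRNA, Nr4a2 stood at 29.6, 36.5 and 29.1 CPM. Those cultures differed from the knockdown in treatment and experiment, and the cause of either low level was not tested. Against untreated inputs 2 of 3 members passed, both downward, beside 3.90% of 13197 genes in either direction. These calls rest on few libraries, since Nr4a2 lost its call without replicate 2 (-2.08, edgeR adjusted p = 0.0738) and Nr4a3 without replicate 1 (0.0682) or 2 (0.324).

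In depolarized inputs the knockdown and untreated cultures differed by -0.33, 0.02 and -0.04 for Nr4a1, Nr4a2 and Nr4a3. None of the 3 passed in edgeR or DESeq2 and 0 had an unadjusted p under 0.05, beside 5.32% of genes. Resting pulldowns gave 0.35 for Nr4a1, -2.15 (SE 0.31, edgeR adjusted p = 5.55e-05) for Nr4a2 and -0.87 (SE 0.21, 0.00842) for Nr4a3, 2 of 3 downward beside 9.15% of genes. Nr4a3 lost its call without replicate 1 (edgeR adjusted p = 0.102) or 2 (0.339). Depolarized pulldowns gave -0.13, 0.30 and -0.14, with 0 of 3 in edgeR and DESeq2 and 0 at an unadjusted p under 0.05, beside 18.9% of genes.

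Tested directly, the KCl response of inputs in the knockdown minus that in untreated PSD95 cultures was 2.46 for Nr4a2 (SE 0.39, edgeR adjusted p = 0.0201). Nr4a2 was the only gene of 13197 to pass, 0.00758% of genes. The difference was 0.28 for Nr4a1 and 1.05 for Nr4a3 (SE 0.28, unadjusted p = 0.001, edgeR adjusted p = 1.00). In pulldowns Nr4a2 differed by 2.45 (SE 0.40, edgeR adjusted p = 0.00218), Nr4a1 by -0.48 and Nr4a3 by 0.73, that is 1 of 3, upward, beside 0.447% of genes, of which 2 passed upward and 57 downward. The input call was lost without replicate 1 (adjusted p = 0.461), 2 (1.00) or 3 (0.0699), and that in pulldowns without replicate 1 (0.104) or 2 (0.26). GABAergic markers (Gad1, Gad2, Slc32a1) summed to 437 to 441 CPM in resting knockdown inputs against 974 to 1483 CPM in resting inputs of the main experiment, and neuronal markers to 5779 to 5935 CPM against 3633 to 4373 CPM. In the same libraries microglial markers summed to 15.8 to 19.3 against 1.79 to 3.82 CPM, endothelial ones to 65.2 to 65.6 against 12.5 to 49.4 CPM, oligodendrocyte lineage ones to 184 to 193 against 244 to 609 CPM and fibroblast ones to 154 to 161 against 228 to 429 CPM. Their part in the Nr4a2 difference was not tested. Knockdown and experiment cannot be told apart, either in the resting levels or in the difference of KCl responses.

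Pulldown over input within the knockdown gave 0.55 for Nr4a1 at rest (SE 0.11, edgeR adjusted p = 0.000133), -0.02 for Nr4a2 and -0.20 for Nr4a3 (0.139), 1 of 3 beside 45.5% of genes. The replicates of Nr4a2 went opposite ways, with 0.45 without replicate 1 and -0.45 without replicate 2. After depolarization Nr4a3 was lower in the pulldown (-0.46, SE 0.11, edgeR adjusted p = 0.000823), with Nr4a1 at 0.22 (0.052) and Nr4a2 at 0.19 (0.291), 1 of 3 beside 48.8% of genes. The leaders of Nr4a2 (-1.89 at rest, -1.92 depolarized) and Nr4a3 (-1.19 and -1.83) were lower in the pulldown, 2 of 3 in each state with the distal Nr4a1 leader, beside 53.6% and 67.1% of leaders. The proximal Nr4a1 leader was lower too, at -1.19 and -2.10 (edgeR adjusted p = 0.00477 and 3.47e-06), which makes 3 of 3 beside 55.0% and 68.2% of leaders with that choice of transcript. Scaled to leader counts the Nr4a2 and Nr4a3 calls were lost. Nr4a2 then lay at -0.50 and -0.16 (edgeR adjusted p = 0.701 and 0.784) and Nr4a3 at 0.22 and -0.065 (0.675 and 0.897). The distal Nr4a1 leader went from 1.13 to 2.53 at rest (edgeR adjusted p = 0.108 and 0.0474) and from -0.70 to 1.07 after depolarization (0.264 and 0.342). The resting Nr4a2 pulldowns held 5 and 7 leader counts, and its value was -1.20 without replicate 1 and -2.55 without replicate 2.

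Ordered by mean level over the 14 groups, Nr4a1 ran from 1112 CPM in depolarized PSD95 inputs to 7.79 CPM in DHPG inputs. The 6 depolarized groups came first, and the step from the last of them (knockdown inputs, 868.9 CPM) to the highest resting group (PSD95 inputs, 113 CPM) was the widest between neighbours. Nr4a2 ran from 275 CPM in depolarized knockdown pulldowns to 26.1 CPM in resting knockdown pulldowns, and Nr4a3 from 614 CPM in depolarized Pan inputs to 80.7 CPM in DHPG pulldowns. Of the 13 neighbouring pairs in each order, 9 (Nr4a1), 10 (Nr4a2) and 10 (Nr4a3) had overlapping libraries.

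Other genes of the pathway were read from lists. Immediate early genes outside the family rose in 22 of 27 and fell in 0 in the KCl response of inputs, with a median log2 fold change of 2.20 against -0.01 over all genes, of which 15.4% passed in either direction. Egr2, a zinc finger transcription factor, went from 4.84, 7.77 and 13.9 CPM (lowest, median, highest of 6) to 150.3, 193 and 225 CPM (log2 fold change 4.57, edgeR adjusted p = 2.87e-12). Egr1, its relative, rose by 3.58 (edgeR adjusted p = 2.18e-10) and the synaptic protein gene Arc by 3.47 (3.58e-12), so that Nr4a1 at 3.36 lay close to them while Nr4a2 and Nr4a3 lay below the list's median. In knockdown inputs 23 of 26 rose and 0 fell (median 1.87), beside 19.3% of all genes in either direction. In DHPG inputs against resting inputs 4 rose and 14 fell of 26 (median -0.83), beside 32.8%.

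Of the 13 upstream activators (CREB, CRTC and MEF2 families, their coactivators, Srf and Camk4), 1 rose and 3 fell in the KCl response of inputs (median 0.04), again beside 15.4% of all genes. Crem, which encodes CREB-related activators and the repressor ICER, rose by 0.93 (edgeR adjusted p = 0.00607). Camk4, a calcium-dependent kinase of CREB, fell by 0.73 (0.0123) and Mef2d by 0.47 (0.0314). Among target genes of Nr4a2 in dopaminergic neurons, 5 of 7 were tested and 0 passed in edgeR, Ret having the smallest p (-0.26, edgeR adjusted p = 0.512). Th, which encodes tyrosine hydroxylase, had group means from 1.33 to 4.02 CPM over the 4 input groups of the main experiment.

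Genes whose mean log2 CPM followed the members most closely over the 14 groups were Dusp1 (r = 0.98), Npas4 (0.98) and Fbxo33 (0.97) for Nr4a1, out of 10874 genes. For Nr4a2 they were Sertad1 (0.92), Mum1l1 (0.90) and Nr4a3 (0.90), and for Nr4a3 they were Fnbp4 (0.97), Crem (0.95) and Csrp1 (0.94). Nr4a1 ranked 34 among the genes closest to Nr4a2, and 274 among those closest to Nr4a3. These Pearson correlations describe 14 means that share libraries, experiments and depth.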

How the data were processed

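Ribosome footprints were counted by the authors with plastid on mm10 and GENCODE M21 transcripts (5′ read ends), and the deposited files hold raw counts per transcript for the CDS, 5′ UTR and 3′ UTR of 38 libraries. Transcripts were matched to genes through the annotation (66664 of 67238, 99.1%), and the longest transcript of each gene was kept. Tests of CDS counts used edgeR 4.0.16 under R 4.3.3 (filterByExpr, TMM, robust quasi-likelihood F test, group means, Benjamini-Hochberg over all genes, threshold 0.05). 5′ UTR counts used the library sizes and factors of the CDS counts. CPM values were computed from the longest transcripts' CDS totals, and library totals over all regions ran from 5906281 to 35643247. Shares and ratios were compared by exact two-sided permutation tests (scipy 1.17.1). Scripts were tested on simulated data. Intervals cover counting error only.

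The members and lists were chosen with earlier results of these data known. Named were the members, Eif4g2, in each list the 3 smallest p-values past the threshold in the KCl response of inputs (or the single smallest), and the 3 genes with the closest profiles. The closing section names all 9 nuclear receptors that passed, 6 of them beyond that rule and after their values were seen. Cell type markers were summed as CPM. Reported tests did not pair replicate numbers. Pairing entered as an alternative, since the methods state joint handling in each replicate. In deviations from group means of the main experiment, input and pulldown of 1 number correlated at 0.36 to 0.71 (12 pairs). Both baits within a state correlated at 0.12 to 0.64 (24), and resting and depolarized libraries at -0.30 to 0.42 (48, median -0.0054). Input and pulldown of 1 number correlated at -0.21 to 0.054 in the DHPG experiment (3 pairs) and at 0.010 to 0.024 in the knockdown experiment (4 pairs). Replicates differed beyond counting noise in every group (chi-square per degree of freedom 1.49 to 51.4). Alternatives were DESeq2 1.42.0, other scalings, filters and transcripts, a length trend, the replicate block and leaving out replicates. Protein sequences were not used here, and 3′ UTR counts only in library totals.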

Additional observations from a re-analysis of the deposited data

Results flagged for a closer look

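Depolarized Pan input replicate 1 was the lowest of the 6 depolarized inputs in the 5′ UTR share of Nr4a2, at 28.0% (207 of 740 counts, 95% Wilson interval 24.9 to 31.3%) against a median of 49.2%. The same library was the lowest for Nr4a3, at 30.9% (631 of 2040 counts, 28.96 to 32.97%) against a median of 48.7%. Its leader counts over all genes, 20.3 per 100 CDS counts, were low as well. For CDS footprints of Nr4a2, depolarized Pan pulldown replicate 2 stood apart from the other depolarized pulldowns, at 122 CPM against a median of 229 CPM. These were 3 of 24 sets of 6 libraries examined for a single distant value, of which chance marks about 5%.

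The KCl response of Nr4a2 differed between knockdown and untreated cultures, by 2.46 on the log2 scale in inputs (edgeR adjusted p = 0.0201) and by 2.45 in pulldowns (edgeR adjusted p = 0.00218). Both values rest on 2 knockdown libraries per group, and the untreated cultures belong to another experiment.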

How the results depend on the processing

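Of the members' CDS log2 fold changes under alternatives, 632 kept direction and side of the threshold, 11 newly passed, 21 no longer passed, 14 moved without a test and 15 turned sign. In the 5′ UTR comparisons that the report gives these were 138, 9, 18, 7 and 8. Knockdown fits without 1 replicate leave no residual degrees of freedom and gave values with no test. The cause of the changes below was not tested, apart from the fewer libraries of leave-outs and single baits. Depth limits the distal Nr4a1 leader, with 8 to 112 counts per library in the main experiment, and the Nr4a2 leader in resting knockdown pulldowns (5 and 7 counts).

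Members past the threshold numbered 1 to 2 without 1 replicate for the KCl response of inputs (2 with all libraries, and 3 with RLE, DESeq2, the transcript of highest CDS count, the block, or the groups compared alone), and 1 for that of PSD95 pulldowns, also with only the libraries of those groups (2 with all). For the resting PSD95 pulldown over inputs 0 passed under RLE size factors, the transcript with the highest CDS count, the PSD95 inputs alone or without 1 replicate. Depolarized PSD95 pulldowns over inputs gave 1 with the replicate block and 1 with a CDS length trend removed, and depolarized Pan pulldowns 1 with the block. The knockdown pulldown over input gave 2 at rest with the length trend removed, and 2 after depolarization with RLE or DESeq2. Knockdown against untreated gave 0 to 2 without 1 replicate in resting inputs and 1 to 2 in resting pulldowns, and the difference of KCl responses 0 in inputs and 0 to 1 in pulldowns. Of the 5′ UTR comparisons 24 of 66 passed, 16 with 5′ UTR library sizes and 32 with the transcript of highest 5′ UTR count, and 25 of 48 with the replicate block (17 without it). These totals pool comparisons with unlike shares of all leaders passing, such as 0.442% (KCl response of inputs) and 95.2% (DHPG pulldown over input). They are not a result about the members. Leaving out 1 replicate left 6 to 16 of 54, against 15 with all. The block changed no other CDS call than the 3 of Nr4a3 given in the report, and no CDS call in the DHPG and knockdown experiments. In the latter experiments input and pulldown of 1 number hardly correlated, so that the block is a weak check there.

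The change of 5′ UTR share in points was -5.65, 18.8 and 11.8 with PSD95 inputs alone, and -9.79, 10.4 and 4.62 with Pan inputs alone, for Nr4a1 (distal leader), Nr4a2 and Nr4a3 (proximal Nr4a1 leader -7.19 and -11.3). Paired by bait and number, in a replicate block added after seeing the data, the Nr4a3 change of 8.22 points lost its call and no other share or ratio did. Without 1 replicate these changes ranged from -9.02 to -5.71, 11.4 to 18.7 and 6.20 to 10.3 (proximal leader -12.0 to -5.08). Log2 ratio shifts were 2.55, 2.94 and 0.40 with PSD95 inputs alone and 2.77, 3.15 and 0.38 with Pan inputs alone, and Nr4a2 to Nr4a3 gave 0.34 to 0.47 without 1 replicate.

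Most values that turned sign were close to 0. With the length trend removed, Nr4a1 gave -0.060 (PSD95) and -0.076 (Pan) in depolarized pulldowns over inputs, and Nr4a2 -0.050 (DHPG) and -0.019 (depolarized knockdown). Nr4a1 gave -0.0027 against the PSD95 inputs alone. With 5′ UTR library sizes the leaders in PSD95 pulldowns over inputs gave 0.77 (Nr4a1, rest), 0.24 (Nr4a1, depolarized), 0.0033 (Nr4a3, depolarized), 0.22 (Nr4a3, resting knockdown) and 1.07 (Nr4a1, depolarized knockdown). Leaders of Pan pulldowns over inputs, left out of these counts, also turned sign with those sizes, at 0.18 (Nr4a1) and 0.25 (Nr4a3) at rest and 0.26, 0.066 and 0.19 after depolarization. With the transcript of highest 5′ UTR count, which swaps the distal Nr4a1 leader for the proximal one, Nr4a1 gave -0.62 (DHPG) and -1.19 (resting knockdown). Nr4a2 gave 0.018 with RLE and 0.033 with DESeq2 in the resting knockdown pulldown over input, and -0.0046 and -0.0045 in depolarized knockdown against untreated inputs. Without 1 replicate, depolarized minus resting enrichment of Nr4a3 ranged from -0.035 to 0.17, its PSD95 over Pan enrichment from -0.12 to 0.070, the DHPG Nr4a1 leader from -0.25 to 0.34, depolarized knockdown against untreated inputs from -0.21 to 0.14 (Nr4a2) and -0.17 to 0.027 (Nr4a3), such pulldowns from -0.37 to 0.013 (Nr4a3), and the difference of input KCl responses from -0.079 to 0.37 (Nr4a1).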

Other observations

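Of 46 nuclear receptors outside the Nr4a family, 29 could be tested in the KCl response of inputs, and 2 rose and 7 fell, with a median log2 fold change of -0.44 against -0.01 over all genes, of which 15.4% passed in either direction. Thra, the thyroid hormone receptor alpha, went from 189, 230.3 and 243 CPM (lowest, median, highest of 6 inputs) to 77.7, 95.6 and 106 CPM (log2 fold change -1.22, edgeR adjusted p = 1.4e-07). Nr1d1, the clock repressor REV-ERB alpha, rose by 1.32 (edgeR adjusted p = 7.96e-06) and Rara, a retinoic acid receptor, by 1.10. Rorb, an orphan receptor expressed in cortical neurons, fell by 1.05 (edgeR adjusted p = 0.0028). Nr1d2, Rxrb, Esrrg, Nr2c2 and Nr2f1 also fell, by 1.41, 0.79, 0.65, 0.55 and 0.42. In knockdown inputs 0 rose and 5 fell of 26, where 19.3% of all genes passed in either direction.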
